A study of Mus musculus with 217 samples.

Results

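The 42 genes described here encode the machinery that drives a cell from rest through DNA synthesis and into division, and they were followed in the ribosome-bound RNA of brain, lung and heart endothelium after a bacterial endotoxin. They were chosen by gene symbol as well known cell cycle genes, all 42 were found among the 52550 genes counted, and they fall into 4 roles. The G1 and S phase regulators number 5, the DNA replication genes 12, the genes of G2 and mitotic entry 8, and the genes of mitosis 17. A resting cell leaves quiescence when D and E cyclins activate their kinases and free E2F transcription factors, which switch on the replication genes. Cyclin A and cyclin B with Cdk1, and the transcription factors Foxm1 and B-Myb, then open the mitotic programme of spindle, kinetochore and cytokinesis genes, whereas the kinase inhibitor p21, encoded by Cdkn1a, holds the cycle back. Endothelium of adult organs is mostly quiescent and re-enters the cycle to close gaps when cells are lost, so these genes are a common readout of vascular repair.

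The animals were adult C57BL/6J mice of the genotype Cdh5CreERT2/+; Rpl22HA/+, in which tamoxifen lets cells with an active Cdh5 promoter, chiefly endothelium, tag the ribosomal protein Rpl22 with an HA epitope. All groups, controls included, carried both alleles and had received tamoxifen by gavage 4 times at 5 mg at 4 to 6 weeks of age. Polysomes pulled down with an antibody to HA gave the RNA of one organ of one mouse, so that a level here is a level of ribosome-bound RNA, limited to cells in which the Cdh5-driven Cre had acted plus whatever RNA came along with the pull-down. Lipopolysaccharide (LPS) at 10 mg/kg was injected into the peritoneum, and organs were taken at 6, 24, 48, 72 and 168 hr; the 0 hr mice were the controls.

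Of 98 libraries, 18 had less than 3% of their reads on genes and were left out, which left 28 of 34 for brain, 24 of 30 for lung and 28 of 34 for heart. Brain and heart had 5, 5, 4, 6, 4 and 4 libraries at 0, 6, 24, 48, 72 and 168 hr, and lung had 4, 4, 2, 6, 4 and 4. Kept libraries held 7226796 to 32891759 counts in brain (median 23645892), 8136031 to 33050750 in heart (median 24082214) and 284457 to 43417945 in lung (median 11376798). The median share of reads on genes was 60.6% in brain, 63.4% in heart and 28.6% in lung, so that low genes were measured least precisely in lung. The file names follow 4 patterns, called library series here, and the 18 libraries left out were the whole of series 3. Series 4 had no library at 0 or 6 hr, and every model held the series as a covariate, apart from alternatives named as such.

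Markers matched the labels in part. The endothelial markers, 16 genes such as Cdh5, Pecam1 and Cldn5, summed to 2524 to 5461 counts per 1000000 (CPM) in the 0 hr brain libraries, to 13610 to 19340 in lung and to 13920 to 15930 in heart. Genes of the surrounding tissue were present as well. Snap25, a synaptic gene of neurons, was at 586 to 2348 CPM in brain at 0 hr, against 0.0748 to 5.57 in lung and 0 to 0.197 in heart. The epithelial markers, led in most lung libraries by the surfactant gene Sftpc or by Scgb1a1, summed to 6920 to 14430 CPM in lung at 0 hr. The cardiomyocyte markers, led by Myh6 or Tnnt2 in most heart libraries, summed to 3511 to 6465 CPM in heart at 0 hr. How much of each cell cycle transcript came from those cells was not tested.

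Some libraries stood apart and are named beside the results they touch. One mouse at 6 hr, the only one of series 1 at that time, gave brain replicate 6, lung replicate 4 and heart replicate 5. In these the neutrophil markers, 14 genes, summed to 295.2, 168.6 and 49.12 CPM, whereas the other 6 hr libraries held 5231 to 8203 in brain, 3397 to 6141 in lung and 3151 to 6955 in heart. In heart at 72 hr, replicate 1 had a neutrophil markers sum of 14.11 CPM, within the 9.159 to 20.39 of the 0 hr hearts, against 597.9, 948.7 and 3718 in the other three, while the brain library of that mouse held 944.5. By these markers the 6 hr mouse and this heart resembled or came near the 0 hr libraries, and whether their labels are right could not be settled. Of the lung 6 hr libraries 3 were thin, with 6.93%, 8.12% and 3.40% of reads on genes, and replicate 3 had 33.9%.

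Before LPS the heart libraries held far more of these transcripts than brain, with lung between. Mki67, the proliferation marker that coats mitotic chromosomes, stood at 0.634, 0.158, 1.02, 2.06 and 1.76 CPM in the brain libraries, at 19.15, 17.1, 44.7 and 11.1 in lung, and at 88.2, 56.3, 30.1, 80.9 and 76.9 in heart. The brain values lay below every lung and heart value, while the highest lung library overlapped the lowest heart library. Cdk1, the kinase that triggers mitosis, was at 0.237 to 1.40 CPM in brain, at 5.51 to 13.3 in lung and at 21.6 to 56.3 in heart, with no overlap between the organs. Top2a, which untangles sister chromatids, was at 0.544 to 1.28 CPM in brain, 1.18 to 5.69 in lung and 22.4 to 59.8 in heart.

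Between heart and brain at 0 hr, 40 of 41 members tested were higher in heart, where 22.8% of all genes tested were called higher. Kif11, a spindle motor, was listed at 0 in every library and is the member without a test. The log2 difference of heart over brain was 6.06 ± 0.53 (SE) for Mki67 (adjusted p = 1.54e-07), 5.74 ± 0.48 for Top2a (9.35e-08) and 5.52 ± 0.45 for Cdk1 (6.52e-08). It was largest for mitosis genes, with a median of 5.20 and 16 of 16 called, then 3.51 for G2 genes (8 of 8), 2.31 for replication genes (12 of 12) and 1.56 for G1 and S phase regulators (4 of 5). The member not called by edgeR was Ccne1 (cyclin E1), at -1.01 ± 0.42 (adjusted p = 0.0519), which DESeq2 called lower in heart. Lung lay above brain for 26 of 41 members (26.4% of all genes called higher) and below it for 1, Ccne1 (37.9% of all genes called lower), with values of 0.884, 0.612, 0.125 and 0.374 CPM in lung and 2.63 to 7.70 in brain and a log2 difference of -3.49 ± 0.55 (6.59e-05). Lung lay below heart for 33 of 41 (31.2% of all genes called lower). With a block for mouse, lung lay above brain for 27 and below it for 2, Ccne1 and Kif20a. Without the block Kif20a was at 0.83 ± 1.07 (adjusted p = 0.508). With that block lung lay below heart for 32 and above it for 1, Rrm1. The medians of the members and of all genes tested were 3.31 and -0.09 for heart over brain, 1.68 and -0.42 for lung over brain, and -2.17 and -0.09 for lung over heart. In bulk RNA, fewer cycling cells and less RNA per cycling cell cannot be told apart, here and in all that follows. The endothelial markers at 0 hr also summed lower in brain, at 2524 to 5461 CPM, than in heart, at 13920 to 15930. The part of the endothelial share of a library in these differences between organs was not tested.

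Per length of exon, the order of the members also differed between organs. Ccnd1 (cyclin D1), which starts the cycle on mitogen signals, had a median of 14.89 CPM per kb in brain, 67.51 in lung and 202.7 in heart at 0 hr, the highest or second highest member in each organ. Its rival in brain was Cdkn1a, with a median of 16.43 CPM per kb there, 13.03 in lung and 36.25 in heart. The replication clamp Pcna followed at 5.90, 5.38 and 15.2 CPM per kb. Mki67 was at 0.101, 1.80 and 7.64 CPM per kb, and Ccnb1 (cyclin B1) at 0.0496, 0.0524 and 0.863. The plot of levels before LPS sets all members side by side by role.

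**Figure D1:**
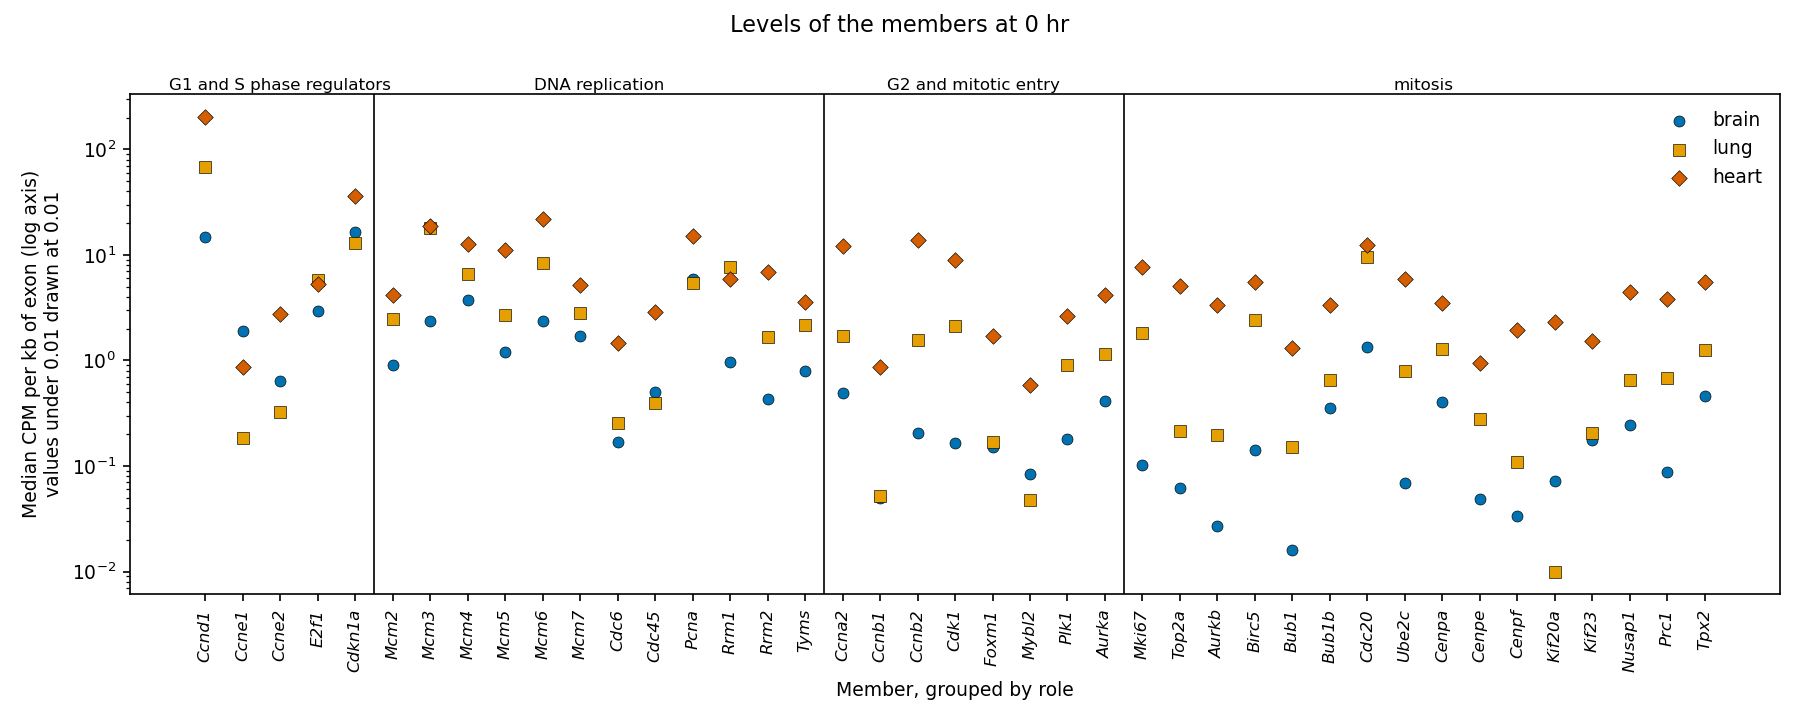
Median level of each member at 0 hr in CPM per kb of exon, log axis, one point per organ, members ordered by role, with values under 0.01 drawn at 0.01. Heart lies above brain for most members, for example 7.64 against 0.101 CPM per kb for Mki67.

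The promoters of a few members are shown because their upstream bases hold short motifs known from cell cycle promoters. These are the CHR (TTTGAA or TTCGAA), which goes with Foxm1 and B-Myb complexes, the CCAAT box (CCAAT), and the E2F site (TTTSSCGC with S for C or G), all read on both strands, overlapping matches counted, within 250 bases before the start site in RefSeq sequence of GRCm38.p6. Of 42 members 34 had an entry. The missing ones were Ccna2, Ccne2, Ccnd1, Aurkb, Kif20a, Tpx2, Mcm4 and Foxm1. A CHR was in 12 of 34 members (35.3%) and in 17.1% of 32851 promoters, a CCAAT box in 26 of 34 (76.5%) against 33.8%, and an E2F site in 5 of 34 (14.7%) against 1.86%. By role, a CHR was found in 7 of 14 mitosis, 2 of 6 G2, 3 of 11 replication and 0 of 3 G1 and S phase promoters, and an E2F site in 0, 1, 4 and 0 of the same. Matches are a description of letters only. In the sequences, capitals mark the motifs, on the strand of the gene from 5′ to 3′. Each stops before the first GENCODE exon of its gene, which leaves out 26 of the 250 bases of Cdk1, with 1 more CHR, and 84 of Ccnb1, with 1 more CCAAT box. As printed, Mki67 (ENSMUSG00000031004; chr7:135716380-135716629, minus strand) holds 2 CHR and 3 CCAAT matches, Top2a (ENSMUSG00000020914; chr11:99024190-99024439, minus strand) 4 and 6, and Cdk1 (ENSMUSG00000019942; chr10:69352939-69353162, minus strand) 1 and 3 with 1 E2F match. Ccnb1 (ENSMUSG00000041431; chr13:100786571-100786736, minus strand) holds 1 CCAAT match. Mcm5 (ENSMUSG00000005410; chr8:75109259-75109508, plus strand) holds 2 CCAAT matches and 2 E2F matches that overlap, and Mcm2 (ENSMUSG00000002870; chr6:88898781-88899030, minus strand) 1 CHR and 1 CCAAT match.
Mki67: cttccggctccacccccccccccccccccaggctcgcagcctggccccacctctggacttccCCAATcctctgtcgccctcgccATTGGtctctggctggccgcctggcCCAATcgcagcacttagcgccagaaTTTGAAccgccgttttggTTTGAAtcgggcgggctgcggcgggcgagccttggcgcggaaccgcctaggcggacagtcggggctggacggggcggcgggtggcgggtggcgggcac
Top2a: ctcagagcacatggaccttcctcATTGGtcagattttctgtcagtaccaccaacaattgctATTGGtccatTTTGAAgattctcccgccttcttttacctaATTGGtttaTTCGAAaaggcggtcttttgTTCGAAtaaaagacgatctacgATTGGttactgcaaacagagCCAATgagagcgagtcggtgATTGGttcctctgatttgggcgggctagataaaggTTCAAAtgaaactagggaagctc
Cdk1: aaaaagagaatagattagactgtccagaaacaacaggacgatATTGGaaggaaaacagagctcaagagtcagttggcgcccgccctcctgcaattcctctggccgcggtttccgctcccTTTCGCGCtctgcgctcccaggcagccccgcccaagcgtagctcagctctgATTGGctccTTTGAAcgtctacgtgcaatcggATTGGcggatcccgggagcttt
Ccnb1: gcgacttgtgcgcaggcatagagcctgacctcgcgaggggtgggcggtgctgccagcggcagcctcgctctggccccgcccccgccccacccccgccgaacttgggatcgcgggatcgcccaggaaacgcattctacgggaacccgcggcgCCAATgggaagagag
Mcm5: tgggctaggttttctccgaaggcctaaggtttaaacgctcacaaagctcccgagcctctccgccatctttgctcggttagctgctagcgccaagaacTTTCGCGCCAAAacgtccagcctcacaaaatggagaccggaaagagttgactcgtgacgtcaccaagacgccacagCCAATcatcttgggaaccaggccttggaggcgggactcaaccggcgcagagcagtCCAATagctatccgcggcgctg
Mcm2: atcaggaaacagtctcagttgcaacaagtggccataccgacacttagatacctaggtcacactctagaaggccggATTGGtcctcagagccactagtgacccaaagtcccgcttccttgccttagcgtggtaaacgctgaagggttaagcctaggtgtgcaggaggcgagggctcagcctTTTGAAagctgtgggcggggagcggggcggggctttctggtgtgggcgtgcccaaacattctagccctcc

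In brain most members were near their starting level for a day and rose at 48 and 72 hr. Mki67 was at 0.307 to 1.84 CPM in the 5 libraries at 6 hr and at 0.430, 0.953, 0.995 and 1.26 at 24 hr. At 48 hr it ranged from 0.534 through a median of 7.24 to 21.9, at 72 hr it was 13.3, 21.9, 56.4 and 18.8, and at 168 hr 1.47, 0.573, 0.803 and 0.306. Every 72 hr library lay above every 0 hr library, and the 168 hr libraries lay within or near the 0 hr range. At 48 hr the libraries split, with replicates 1, 2 and 4 at 21.9, 18.1 and 13.5 CPM and replicates 3, 6 and 7 at 0.964, 0.534 and 0.543, inside the 0 hr range. Mki67 rose by a log2 of 3.20 ± 0.74 at 48 hr (adjusted p = 0.00705) and of 5.35 ± 0.86 at 72 hr (0.000528).

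**Figure D2:**
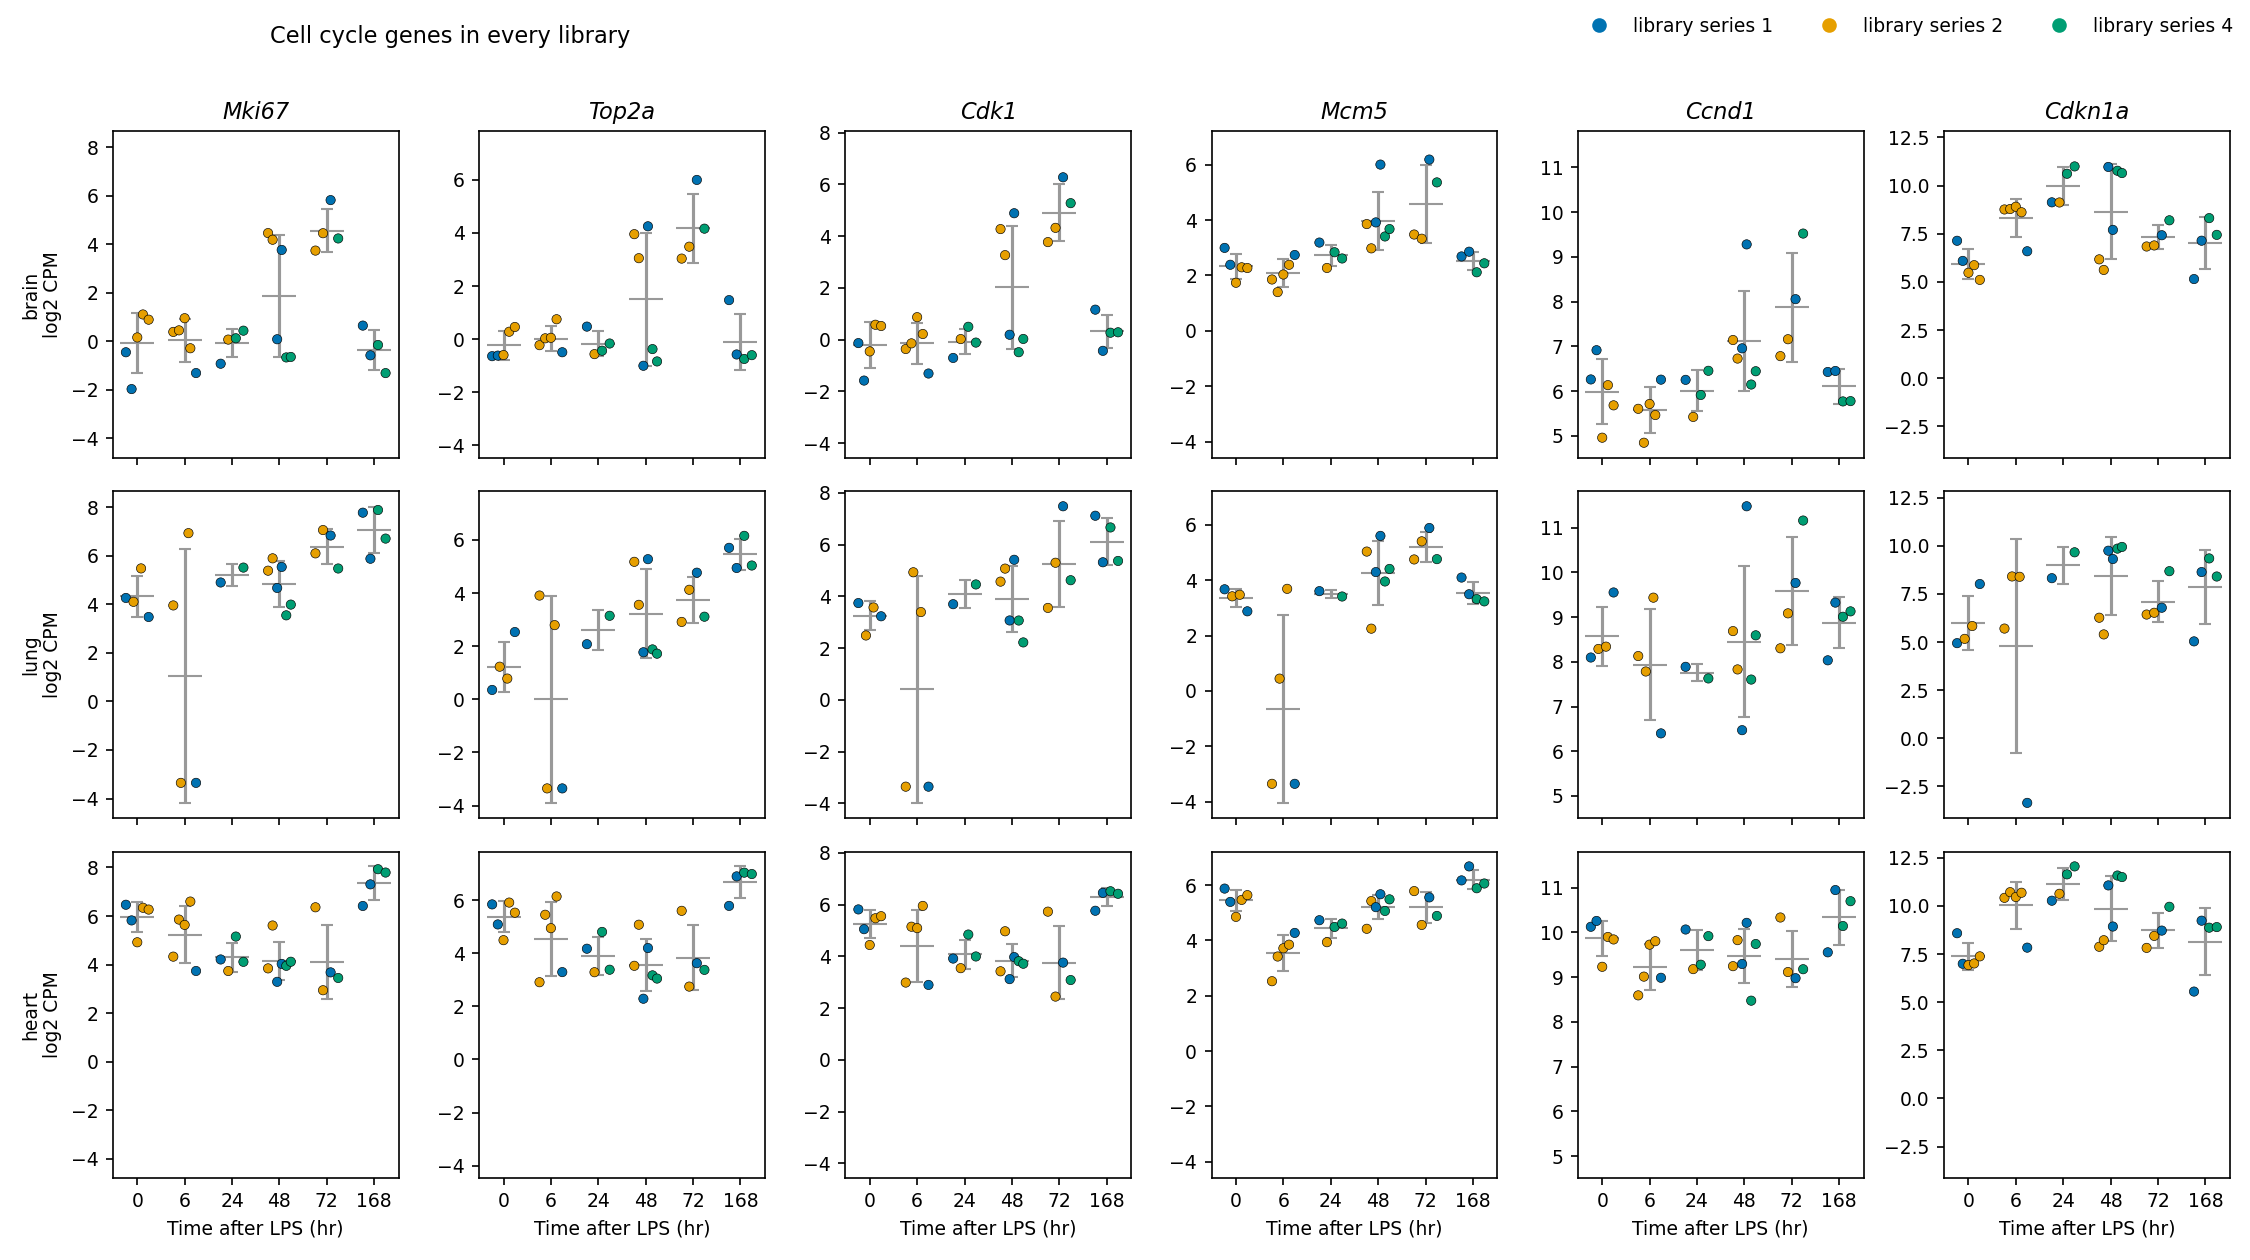
CPM per library (log axis) of named members against hours after LPS in brain, lung and heart, points coloured by library series and grey bars showing the mean ± SD of log2 CPM. Brain Mki67 lies between 13.3 and 56.4 CPM at 72 hr, above all brain libraries at 0 hr.

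Other genes of mitosis and G2 in brain are given in turn. Cdk1 was at 0.816, 0.237, 0.633, 1.40 and 1.35 CPM at 0 hr, ranged from 0.618 through 5.29 to 29.5 at 48 hr and was 13.6, 19.9, 77.4 and 38.7 at 72 hr. Top2a went from 0.544 to 1.28 CPM at 0 hr to 8.09, 11.1, 63.7 and 17.8 at 72 hr. For both, no 72 hr library overlapped the 0 hr group. The log2 change at 72 hr was 5.68 ± 0.92 for Cdk1 (adjusted p = 0.000528) and 5.32 ± 0.87 for Top2a (0.000586). Cdc20, an activator of the complex that ends mitosis, had the lowest adjusted p of the members at 72 hr (4.42e-05), with 2.45, 2.53, 2.57, 3.17 and 1.93 CPM at 0 hr, 8.92, 10.4, 22.9 and 14.8 at 72 hr and a change of 2.48 ± 0.30. Nusap1, a spindle microtubule binder, changed by 3.73 ± 0.48 (6.87e-05). Foxm1 was at 0.483 to 1.19 CPM at 0 hr and at 2.05, 2.75, 15.3 and 4.06 at 72 hr, a change of 2.52 ± 0.43 (0.000793). Ccnb1 was scarce, with 0, 0, 0.352, 0.209 and 1.04 CPM at 0 hr and 0.639, 1.12, 6.75 and 1.63 at 72 hr, and its groups overlapped (3.38 ± 0.95, 0.0459, a call that ended when any of 13 libraries was left out). That call was also lost with limma-voom, without the series covariate, with only the 2 groups compared and in series 1 or 2 alone. In each of these genes replicate 3, of series 1, was the highest 72 hr library.

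The counts by role in brain were 28 of 41 members higher at 48 hr, when 8.11% of all genes tested were called higher, and 34 of 41 at 72 hr, when 2.98% were. No member was called lower at either time. At 72 hr these were 15 of 16 mitosis genes (median log2 change 4.08), 7 of 8 G2 genes (3.50), 11 of 12 replication genes (1.65) and 1 of 5 G1 and S phase regulators (1.05). At 48 hr they were 12, 5, 9 and 2 of the same, with medians of 2.19, 1.86, 1.15 and 0.70. Over the members the median was 1.68 at 48 hr and 2.52 at 72 hr, beside 0.02 and -0.04 over all genes, and all 41 members had a positive change at both times. All comparisons with 0 hr within an organ share the same controls. Within library series 2 alone, 18 members were called at 48 hr and 18 at 72 hr, and within series 1 alone 0 at either time, where a group held 1 or 2 libraries and DESeq2 and limma-voom were not run. With limma-voom 12 members were called at 48 hr, and Mki67, Cdk1, Top2a, Ccnd1 and Cdkn1a were not among them. Leaving out 1 library at a time gave 19 to 31 members at 48 hr and 24 to 35 at 72 hr.

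Among the replication genes, Mcm5, a subunit of the helicase that unwinds DNA, was at 7.88, 5.14, 3.24, 4.81 and 4.73 CPM in brain at 0 hr, ranged from 7.79 through 13.6 to 64.2 at 48 hr, and was 11.1, 9.95, 72.8 and 41.1 at 72 hr and 6.35, 7.16, 4.24 and 5.33 at 168 hr. Of the 48 and 72 hr libraries only replicate 2 at 48 hr overlapped the 0 hr group, and all 168 hr libraries lay within the 0 hr range. The log2 change was 1.72 ± 0.37 at 48 hr (adjusted p = 0.00439) and 2.45 ± 0.41 at 72 hr (0.000632). Mcm3 of the same helicase was called as early as 24 hr, with 11.5, 13.4, 6.97, 6.87 and 8.93 CPM at 0 hr and 24.2, 14.9, 28.8 and 28.5 at 24 hr (0.91 ± 0.27, 0.0320, a call lost without any of 5 libraries), and changed by 1.48 ± 0.25 at 48 hr (0.000602). Rrm2, the rate-limiting subunit of the enzyme that makes deoxynucleotides, was at 0.816 to 1.55 CPM at 0 hr and at 5.85, 6.91, 43.9 and 17.0 at 72 hr (2.49 ± 0.47 at 48 hr, 0.00157, and 3.75 ± 0.51 at 72 hr, 0.000108). Pcna did not pass by edgeR at either time, at 0.64 ± 0.22 (0.0549) and 0.74 ± 0.24 (0.0855), but was called higher at 48 hr by DESeq2 and with RLE scaling, at 72 hr without the filter and with only the 2 groups compared, and at both times without the 6 hr mouse of series 1.

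Pcna in brain differed by library series as well as by time, and the 2 were not tested against each other. Its 48 hr libraries of series 2 held 16.7 and 10.3 CPM and the other four 43.7, 42.4, 47.8 and 43.3, and at 72 hr the series 2 libraries held 18.9 and 17.7 and the other two 48.0 and 46.2. The 0 hr values were 27.1 and 22.7 CPM in series 1 and 11.8, 14.2 and 10.8 in series 2. At 168 hr, with no library of series 2, Pcna was at 15.97 CPM in replicate 1 and 24.13 to 25.73 in the others. By edgeR it was lower at 168 than at 48 hr (-0.88 ± 0.23, adjusted p = 0.00641), a call lost without the series covariate.

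Among the G1 and S phase regulators, Ccnd1 rose in brain. It was at 76.6, 120.6, 31.0, 70.1 and 51.2 CPM at 0 hr, ranged from 70.8 through 115 to 621.6 at 48 hr, and was 109.9, 142.9, 266 and 735.2 at 72 hr. The 72 hr libraries overlapped only the highest 0 hr library. The change was 1.27 ± 0.42 at 48 hr (adjusted p = 0.0439) and 2.10 ± 0.48 at 72 hr (0.0110). The 48 hr call ended when any of 16 of the 28 libraries was left out, most of all replicate 4 at 48 hr, without which the change was 0.71 (adjusted p = 0.157), and the 72 hr call ended without replicate 5 at 72 hr (0.0584). Ccne1 did not pass (0.40 ± 0.30 at 48 hr, 0.371, and 0.74 ± 0.32 at 72 hr, 0.241).

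Cdkn1a, whose protein p21 restrains cyclin kinases, ran ahead of the other members in brain. It was at 140.5, 68.0, 44.4, 58.4 and 34.3 CPM at 0 hr, at 434.1, 441.5, 478.8, 392.4 and 96.3 at 6 hr, and at 561.1, 558.1, 1569 and 2045 at 24 hr. At 48 hr it ranged from 49.1 through 909.5 to 2006, at 72 hr it was 114.3, 118.8, 171.6 and 293.8, and at 168 hr 35.3, 140.9, 317.8 and 173.8. All 24 hr libraries lay above all 0 hr libraries, as did all at 6 hr but replicate 6. The change was 2.94 ± 0.71 at 6 hr (adjusted p = 0.0104), 3.11 ± 0.72 at 24 hr (0.00746), 2.83 ± 0.71 at 48 hr (0.0109) and 1.02 ± 0.67 at 72 hr (0.491). It was the only member called higher in brain at 6 hr (1 of 41, 4.21% of all genes) and one of 2 at 24 hr, with Mcm3 (6.52% of all genes). Without 24 hr replicate 2 its adjusted p at 24 hr was 0.0682, and without 48 hr replicate 3 it was 0.0871 at 48 hr. The call was also lost at 6 hr without the series covariate, at 24 hr with a block for replicate number, and at 48 hr with that block, with limma-voom, in series 2 alone and with only the 2 groups compared. Leaving out other libraries moved the 24 hr count as well, to 1 without 0 hr replicate 1, 2 or 3 or 24 hr replicate 1 and to 0 without 24 hr replicate 2, and without replicate 6 at 6 hr the count there was 2. In series 1 alone the 6 hr change, which rests on that replicate, was -0.15.

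At 168 hr many brain members lay below their 48 hr level. By edgeR 0 of 41 were called at 168 hr against 0 hr, as 0% of all genes were, with 1 at an unadjusted p under 0.05 and 0 by DESeq2 and by limma-voom, and the medians were 0.12 for the members and 0.09 for all genes. Against 48 hr, 26 of 41 were lower at 168 hr, beside 15.3% of all genes, with medians of -1.55 and 0.07. These were 11 of 12 replication genes, 9 of 16 mitosis genes, 4 of 8 G2 genes and 2 of 5 G1 and S phase regulators. Mki67 fell by 2.59 on the log2 scale (SE 0.87, adjusted p = 0.026), Mcm5 fell by 2.04 (SE 0.40, 0.000885) and Cdkn1a fell by 2.84 (SE 0.72, 0.00488). Without the series covariate 14 members were lower, and Cdkn1a was not among them. Between 6 and 48 hr 25 members rose, beside 4.23% of all genes, with medians of 1.62 and 0.01. Mki67 changed by 3.41 ± 0.75 (0.00676) and Cdkn1a by -0.10 ± 0.76 (0.949). That count was 11 without 48 hr replicate 1, 12 without 6 hr replicate 1, 14 without 6 hr replicate 3 and 17 without the 6 hr mouse of series 1.

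Marker genes of other cells moved in brain over the same days. The neutrophil markers summed to 23.56 to 94.24 CPM at 0 hr, 10420 to 27930 at 24 hr, 450.6 to 25590 at 48 hr and 745 to 4339 at 72 hr, and Lcn2, an iron-binding protein that other cells also make in inflammation, was the most abundant in 27 of 28 libraries. Ly6g, which defines mature neutrophils, stayed between 0 and 0.835 CPM in brain. The monocyte and macrophage markers, led by Cd14, Csf1r or Lyz2, summed to 29.54 to 113.7 CPM at 0 hr, 274.7 to 483.4 at 48 hr, 145.6 to 294.6 at 72 hr and 30.21 to 101.6 at 168 hr. Of these 11 genes 7 rose at 48 hr and 6 at 72 hr, beside 8.11% and 2.98% of all genes. Adgre1, which defines macrophages, was at 12.1, 13.0, 0.723, 11.9, 0.955 and 1.82 CPM in 48 hr replicates 1, 2, 3, 4, 6 and 7, the same 3 libraries being high as for Mki67, and at 0.363 to 2.10 at 0 hr. The endothelial markers summed to 4005 to 6651 CPM at 48 hr and 4430 to 7507 at 72 hr. Snap25 of neurons was at 586 to 2348 CPM at 0 hr, 264.6 to 2039 at 24 hr, 242.1 to 1002 at 48 hr and 179.4 to 1850 at 72 hr, overlapping at each time, with the lowest values after LPS below any at 0 hr. The part of these cells in the rise was not tested.

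In heart, members were called lower early. Mki67 there was at 20.0, 57.7, 49.5, 96.6 and 13.2 CPM at 6 hr, 18.4, 13.2, 35.5 and 17.2 at 24 hr, and 9.67 through 15.8 to 48.7 at 48 hr. It was 82.0, 7.58, 12.7 and 10.8 CPM at 72 hr and 85.2, 158, 243.7 and 221.5 at 168 hr. At 24 hr 3 of the 4 libraries lay below the lowest 0 hr heart, at 30.1, at 48 hr all but replicate 2 did, and at 168 hr all but replicate 1 lay above the highest, at 88.2. By edgeR none of these shifts passed against 0 hr for Mki67. In order of time they were -0.94 ± 0.57 (adjusted p = 0.188), -1.60 ± 0.65 (0.0884), -1.81 ± 0.54 (0.0551), -1.52 ± 0.61 (0.61) and 1.63 ± 0.63 (0.985). DESeq2 called it lower at 24 and 48 hr, edgeR did at 48 hr without the 6 hr mouse of series 1 and at 24 and 48 hr without the series covariate, and without the filter on low counts it was called lower at 6 to 72 hr and higher at 168 hr.

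Replication genes were among those that fell in heart at 6 hr. Mcm5 went from 58.5, 41.9, 28.8, 44.0 and 49.6 CPM at 0 hr to 5.66, 10.6, 13.0, 14.3 and 19.2 at 6 hr, and Mcm7 from 23.0, 24.5, 18.5, 21.8 and 27.3 to 9.36, 10.6, 11.0, 11.2 and 11.8. Mcm2 went from 32.0, 26.6, 14.6, 29.2 and 33.4 CPM to 5.38, 7.38, 4.26, 10.7 and 15.7. For Mcm5 and Mcm7 no 6 hr library reached the 0 hr range, and for Mcm2 only replicate 5, of the mouse that stood apart, did. Mcm5 fell by 1.78 on the log2 scale (SE 0.26, adjusted p = 3.31e-05), Mcm7 fell by 1.12 (SE 0.21, 0.000383) and Mcm2 fell by 1.64 (SE 0.34, 0.000788). E2f1, the factor that activates these genes, went from 21.2, 16.8, 11.7, 16.9 and 20.3 CPM to 1.01, 2.39, 2.32, 6.20 and 6.05 at 6 hr and 2.64, 2.49, 1.80 and 1.46 at 24 hr, and fell by 2.51 at 24 hr (SE 0.59, 0.00835). Cdc6, which loads the helicase, fell by 1.30 at 24 hr (SE 0.32, 0.0118), and Mcm7 by 1.17 (SE 0.24, 0.00414).

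In all, 19 of 41 members were lower in heart at 6 hr, when 20.3% of all genes were called lower, and 1, Cdkn1a, was higher, when 22.4% were. The lower ones were 8 of 12 replication genes, 7 of 16 mitosis genes, 2 of 8 G2 genes and 2 of 5 regulators, with a median over all members of -0.94 beside -0.05 over all genes. Foxm1 was among them, at -1.23 ± 0.45 (adjusted p = 0.03185). Its call was lost without 0 hr replicate 1, 4 or 5 or 6 hr replicate 1, 2 or 3. It was also lost with a block for replicate number and in series 1 or 2 alone. At 24 hr 7 were lower (7.11% of all genes) and 1 higher (9.07%), and at 48 hr 3 were lower (1.11%) and 1 higher (3.08%). The 3 at 48 hr were Cenpf and Cenpa of the kinetochore, at -2.03 ± 0.47 (adjusted p = 0.0145) and -1.32 ± 0.34 (0.0256), and Cdc20, at -1.39 ± 0.40 (0.0468). Cenpf went from 29.7, 20.1, 13.4, 35.0 and 32.2 CPM at 0 hr to 2.33 through 5.02 to 14.8 at 48 hr, where only replicate 2 reached the 0 hr range. The medians were -1.13 at 24 hr, -1.13 at 48 hr and -0.86 at 72 hr, beside -0.04, -0.01 and 0.00 over all genes. The count of 20 called in either direction at 6 hr was 12 without 6 hr replicate 1, and series 2 alone gave 7 lower and 3 higher. The 24 hr count of 8 was 5 without 0 hr replicate 1 or 24 hr replicate 1, 1 without 24 hr replicate 2 and 13 without 72 hr replicate 1. The 24 hr calls of E2f1, Cdc6, Mcm5 and Cdkn1a each ended without 24 hr replicate 2. The 48 hr count of 4 was the least steady, at 0 to 2 without any one of 16 libraries and 9 without 48 hr replicate 2. Within series 1 alone no member was called at 6, 24 or 48 hr. Settings moved the lower counts too, given here without the share of all genes called under each. At 24 hr they were 13 with DESeq2, 16 without the series covariate and 22 without the filter on low counts. With only the 2 groups compared 28 were lower, with a block for replicate number 5, and in series 2 alone 1. At 48 hr they were 7 with DESeq2, 22 without that filter, 2 with only the 2 groups compared and 1, Cenpf, with limma-voom. The block for replicate number left no member called at 48 hr.

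At 72 hr in heart edgeR called 0 of 41 members (0.275% of all genes called in either direction), with 7 at an unadjusted p under 0.05 and 0 by DESeq2 and limma-voom. Replicate 1, named above for its neutrophil markers, held 82.0 CPM of Mki67 and a summed mitosis level of 415.9 CPM, against 63.78 to 96.32 in the other three. Without it 5 members were called, all lower. At 168 hr again 0 of 41 passed (0% of all genes), although all 41 had a positive change, 31 had an unadjusted p under 0.05 and the median was 1.28 beside 0.00 over all genes. DESeq2 and limma-voom called 0 as well, and edgeR without the filter on low counts called 6. No share of all genes at an unadjusted p under 0.05 stands beside the 7 at 72 hr and the 31 at 168 hr.

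Set against 48 hr, the hearts taken at 168 hr were higher for 34 of 41 members, beside 8.92% of all genes. They were lower for 1, Cdkn1a (-1.91 ± 0.63, adjusted p = 0.0348), beside 10.5%, a call lost without the series covariate. The higher ones were 16 of 16 mitosis genes (median 3.01), 8 of 8 G2 genes (2.77), 7 of 12 replication genes (0.86) and 3 of 5 regulators (1.67). Mki67 changed by 3.44 ± 0.59 (0.00154), Top2a by 3.27 ± 0.61 (0.00191), Ccnb1 by 3.18 ± 0.66 (0.00335) and Foxm1 by 2.69 ± 0.46 (0.00155). Foxm1 stood at 2.32 through 3.42 to 6.62 CPM at 48 hr and at 16.0, 27.0, 28.3 and 27.5 at 168 hr, with no overlap, and Ccnb1 at 0.349 through 0.752 to 2.24 and then 5.47, 6.67, 9.16 and 10.1, with none either. Top2a went from 4.78 through 10.1 to 33.5 CPM at 48 hr to 54.8, 118.6, 130.7 and 126.1, and Cdk1 from 8.62 through 13.5 to 31.3 to 54.3, 87.8, 91.6 and 85.6 (2.60 ± 0.56, 0.00372). Ccne1, at 4.71, 7.55, 4.78 and 5.91 CPM at 168 hr, changed by 1.67 ± 0.48 (0.0196) and Mcm5 by 0.88 ± 0.26 (0.0222). Ccnd1 and Pcna did not pass by edgeR (0.93 ± 0.35, 0.0598, and 0.54 ± 0.23, 0.0994), although DESeq2, and edgeR without the 6 hr mouse of series 1, called Ccnd1 higher.

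Between 6 and 48 hr in heart 5 of 41 members rose, when 15.1% of all genes did, and 3 fell, when 17.4% did. The 5 were Mcm5, Mcm4, E2f1, Mcm7 and Mcm2, with Mcm5 at 1.53 ± 0.26 (adjusted p = 0.000349), and the 3 were Mybl2, which encodes B-Myb, and the kinetochore genes Cenpe and Cenpf. The medians were -0.15 for the members and 0.04 for all genes. Without 48 hr replicate 1 the count of 8 was 5.

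Cdkn1a in heart was at 382.8, 127.2, 121.2, 128.8 and 166.3 CPM at 0 hr, 1368, 1678, 1409, 1643 and 227.6 at 6 hr, 1233, 1582, 3184 and 4244 at 24 hr, and 234.9 through 1314 to 3055 at 48 hr. At 24 hr all libraries lay above all controls, and at 6 hr all but replicate 5. The change was 3.05 ± 0.65 at 6 hr (adjusted p = 0.00103), 2.88 ± 0.65 at 24 hr (0.006475), 2.12 ± 0.61 at 48 hr (0.04835) and 0.92 ± 0.61 at 72 hr (0.9998). In series 1 alone, where replicate 5 is the 6 hr library, the 6 hr change was -0.18. The 48 hr call ended when any of 21 of the 28 libraries was left out (1.56 without 48 hr replicate 3). It was also lost with limma-voom, with only the 2 groups compared, with a block for replicate number and in series 1 or 2 alone.

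Marker genes moved in heart too. The neutrophil markers, almost wholly Lcn2 in every one of the 28 libraries, summed to 9.159 to 20.39 CPM at 0 hr, 8568 to 22920 at 24 hr and 11.68 to 26.89 at 168 hr, and 8 of 9 tested rose at 6 hr and 8 at 48 hr, beside 22.4% and 3.08% of all genes. Ly6g reached at most 0.166 CPM in any heart and was at 0 in all hearts at 0 hr, and Elane, a granule protease of neutrophils, was at 0 in all hearts at 0, 48 and 72 hr. The endothelial markers summed to 13920 to 15930 CPM at 0 hr and to 6015 to 8847 in the 6 hr hearts other than replicate 5, which held 15420. Of the 16 genes 11 fell at 6 hr and 1 rose, beside 20.3% and 22.4% of all genes, so that the replication genes fell at a time when most of the endothelial markers did. The part of either in the fall was not tested.

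In lung the values were high late, with wide spread, and edgeR called no member against 0 hr. Mki67 was at 15.4, 0, 122.5 and 0 CPM at 6 hr, where the zeros are the 2 libraries with 8.12% and 3.40% of reads on genes, and at 29.8 and 45.7 at 24 hr. It ranged from 11.6 through 33.7 to 59.6 CPM at 48 hr, was 68.7, 133.8, 114.4 and 44.6 at 72 hr and 219.8, 58.9, 237.3 and 104.8 at 168 hr. All 168 hr libraries and 3 of 4 at 72 hr lay above the highest 0 hr lung, at 44.7 CPM. Top2a was at 1.18, 2.24, 1.62 and 5.69 CPM at 0 hr, at 7.43, 17.3, 27.1 and 8.53 at 72 hr and at 52.0, 30.7, 71.1 and 32.7 at 168 hr, with neither late group overlapping the first.

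By edgeR 0 of 41 members were called in lung at any time against 0 hr, where 4.83%, 0.375%, 0.598%, 0.193% and 0.0117% of all genes were called in either direction at 6, 24, 48, 72 and 168 hr. At an unadjusted p under 0.05 there were 2, 1, 11, 18 and 21 members, DESeq2 called 2, 0, 2, 6 and 9, and limma-voom 0, 0, 0, 1 and 0. The share of all genes at that unadjusted threshold, or by DESeq2 or limma-voom, is not given, so these counts have no background beside them. The median change of the members was 0.20, 0.36, 1.14, 1.76 and 2.09, beside -0.42, -0.12, 0.00, -0.04 and 0.00 over all genes, and 28, 25, 37, 40 and 38 of 41 were positive. At 168 hr the medians by role were 3.40 for mitosis, 3.09 for G2, 0.54 for replication and 0.70 for the regulators, and at 72 hr 1.69, 1.95, 1.43 and 1.58. The fitted change for Top2a was 2.70 ± 0.87 at 72 hr (adjusted p = 0.313) and 4.61 ± 1.01 at 168 hr (0.382), and for Mki67 2.21 ± 0.79 (0.408) and 3.48 ± 0.92 (0.682). Both were among the 9 members that DESeq2 called at 168 hr. Single libraries moved these counts, since without the deep 6 hr replicate 3 there were 7 members called at 6 hr (1 higher and 6 lower), without 0 hr replicate 4 there was 1 at 48 hr and 1 at 168 hr, and without 6 hr replicate 2 there was 1 at 168 hr and 1 at 72 hr. At 72 hr there were 2 without 6 hr replicate 1 and 1 without 0 hr replicate 1 or 6 hr replicate 3. With the libraries limited to those with at least 10% of reads on genes, 4 were called at 72 hr.

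Lung at 168 hr stood above lung at 48 hr for 3 of 41 members, beside 0.885% of all genes, all of mitosis, with medians of 1.05 and 0.02. Prc1, which bundles the midzone of the spindle, was at 1.88 through 6.01 to 21.2 CPM at 48 hr and 48.5, 22.7, 65.9 and 27.7 at 168 hr, and changed by 2.90 ± 0.75 (adjusted p = 0.0289). Cenpf was at 2.35 through 3.46 to 14.4 CPM and then 48.8, 15.1, 51.8 and 20.8 (3.35 ± 0.91, 0.0389), and Mki67 changed by 2.75 ± 0.75 (0.0398). For Prc1 and Cenpf the groups did not overlap. The count was 0 without 168 hr replicate 1, 4 or 5, 48 hr replicate 3, 6 or 7, or 72 hr replicate 5, was 1 without 0 hr replicate 3, and was 5 without 6 hr replicate 2. Between 6 and 48 hr edgeR called 0 of 41 (0.211% of all genes), with 5 at an unadjusted p under 0.05 and 0 by DESeq2, and 11, all higher, without 6 hr replicate 3. Cdkn1a in lung was at 30.6, 35.8, 56.8 and 258.3 CPM at 0 hr, 51.85, 339, 334.9 and 0 at 6 hr, 318.7 and 809.2 at 24 hr and 42.0 through 746 to 982 at 48 hr. Later it was at 85.95, 91.6, 109.9 and 410 CPM at 72 hr and 32.65, 397.2, 649.1 and 338.4 at 168 hr. It changed by 1.86 ± 0.915 at 6 hr (0.2155) and 1.70 ± 0.83 at 48 hr (0.501), neither called by edgeR, and DESeq2 called it higher at 6 hr.

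Leukocyte genes were abundant in lung. The neutrophil markers summed to 59.48 to 229 CPM at 0 hr, 2485 to 5326 at 48 hr, 970.3 to 3018 at 72 hr and 38.88 to 272.5 at 168 hr, led by Lcn2 or S100a9 in 23 of 24 libraries, and 7 of 12 tested rose at 48 hr and 2 at 72 hr, beside 73 and 29 of 17058 genes. Ly6g was at 8.29, 27.1, 5.30, 0.515, 0.293 and 4.23 CPM in the 48 hr lungs. The monocyte and macrophage markers, mostly Lyz2 or Marco, summed to 291.7 to 964.4 CPM at 0 hr and 381.8 to 4755 at 48 hr. They summed to 952.4 to 2007 CPM at 72 hr and 110.4 to 386.9 at 168 hr. At 168 hr both sums overlapped their 0 hr ranges. The lymphocyte markers summed to 22.95 to 38.89 CPM at 0 hr and 12.99 to 79.53 at 168 hr. The part of leukocytes in the 48, 72 and 168 hr values was not tested.

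The heat map of fold changes sets the 3 organs side by side, and the interaction tests say where they differ. The response in heart was lower than in brain for 11 of 41 members at 48 hr, beside 0.114% of all genes, and for 21 at 72 hr, beside 0.3%, with member medians of -2.78 and -3.35 beside -0.01 and 0.03 over all genes and no member positive at either time. At 72 hr these were 13 of 16 mitosis genes (median -5.36), 6 of 8 G2 genes (-4.62), 2 of 12 replication genes (-1.75) and 0 of 5 regulators. The difference was -6.87 ± 1.11 for Mki67 (adjusted p = 0.000866), -6.83 ± 1.17 for Cdk1 (0.000873), -6.59 ± 1.15 for Top2a (0.000923), -3.75 ± 0.75 for Foxm1 (0.00455) and -2.59 ± 0.63 for Mcm5 (0.0343). For Ccnb1 it was -4.43 ± 1.18 (0.084), and for Cdkn1a -0.08 ± 1.00 (1). At 48 hr it was -4.98 ± 0.95 for Mki67 (0.0132), -4.90 ± 1.02 for Cdk1 (0.022) and -4.80 ± 0.98 for Top2a (0.022). At 6 hr 1 member, E2f1, differed (0.254% of all genes lower), with a median of -1.06 beside -0.05. The plot of brain against heart shows the 48 and 72 hr changes of each member.

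**Figure D3:**
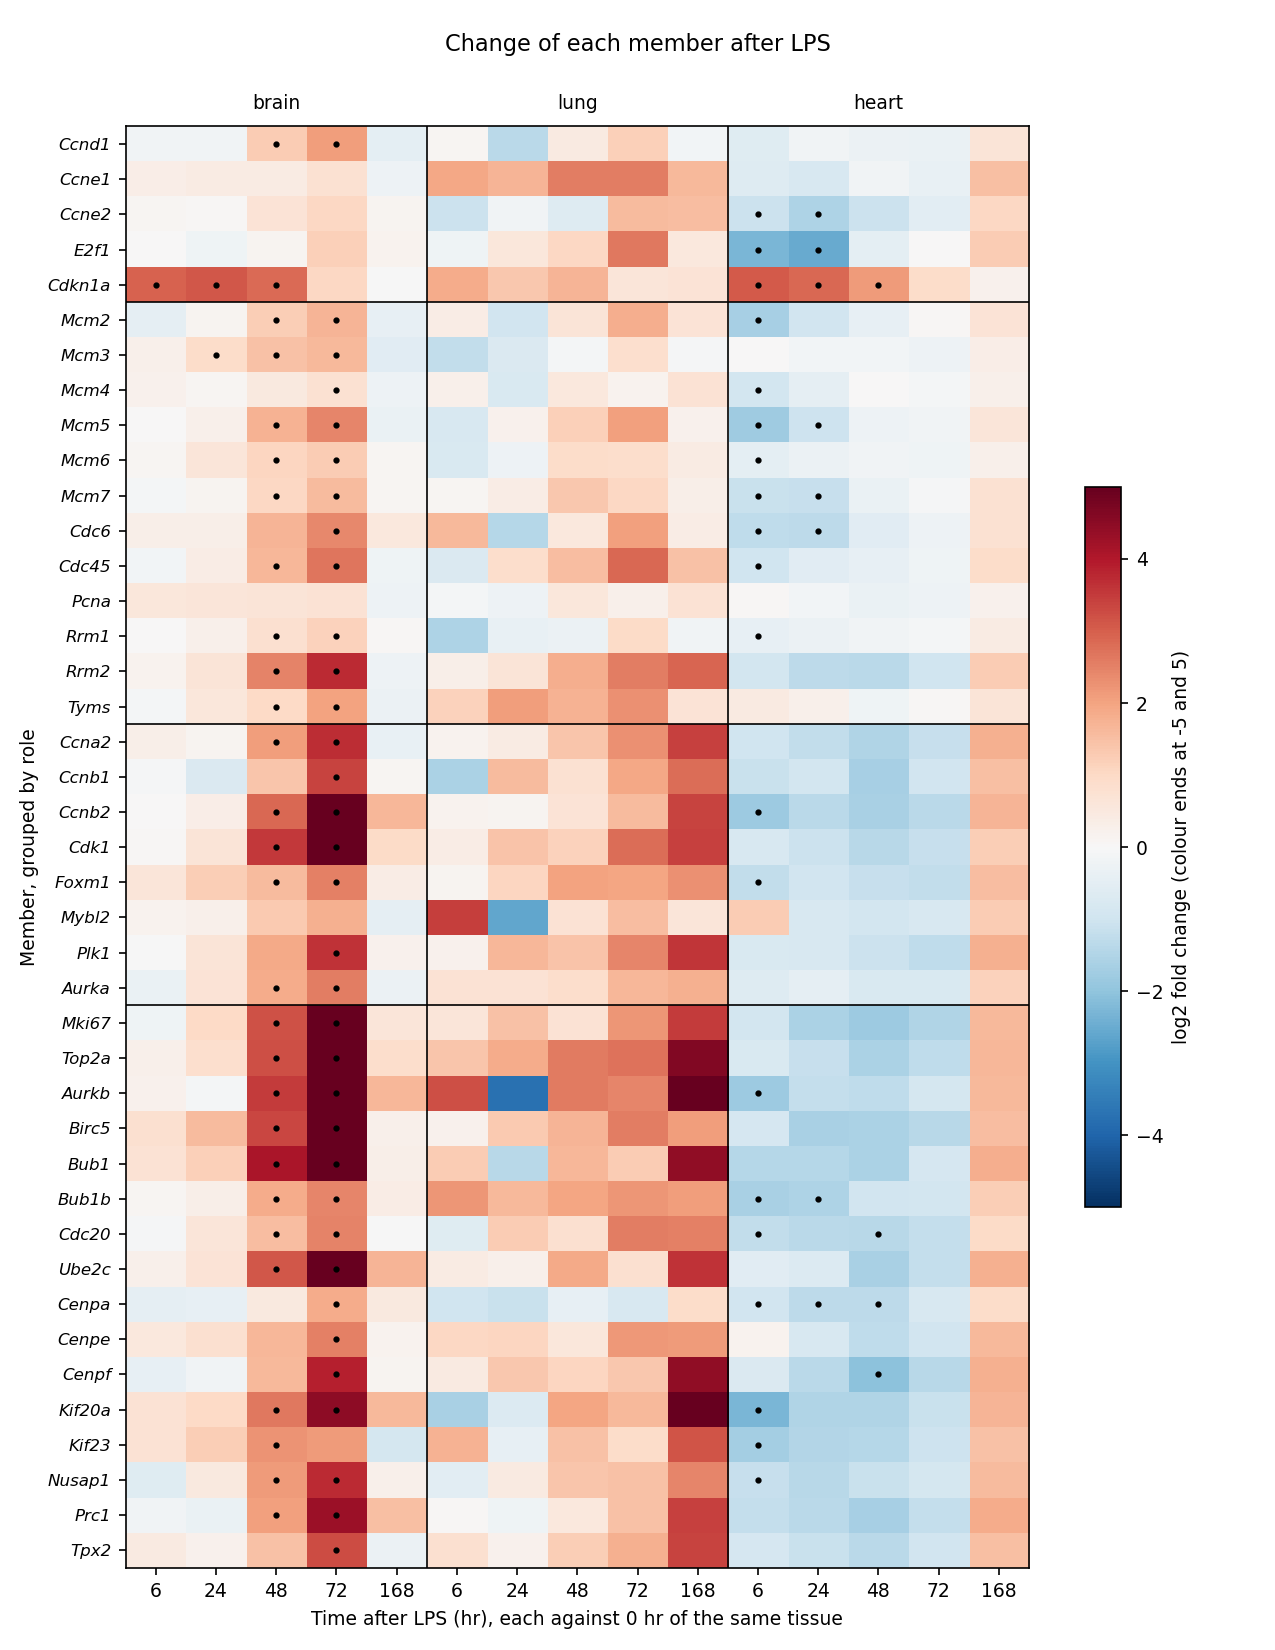
Heat map of the log2 fold change against 0 hr for each member by role in each organ and time, colour ending at -5 and 5, with a black dot where the adjusted p is under 0.05. Dots fill brain at 48 and 72 hr (28 and 34 members) and heart at 6 hr (20), and lung has none.

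**Figure D4:**
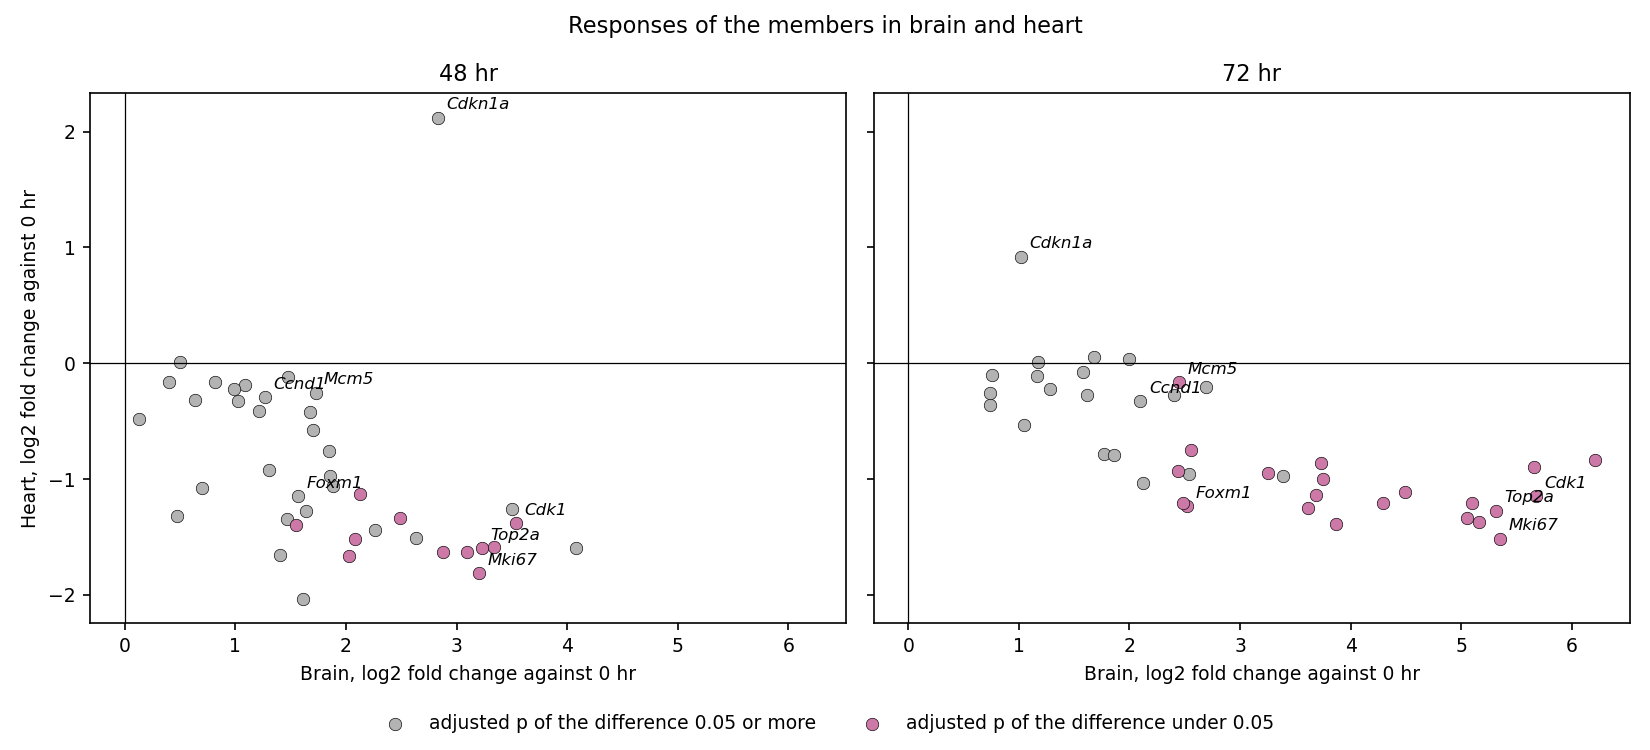
Log2 fold change in brain (horizontal) and heart (vertical) at 48 and 72 hr, one point per member, coloured by whether the interaction had an adjusted p under 0.05. All 41 members lie right of 0 in brain, and the coloured ones, 11 at 48 hr and 21 at 72 hr, all lie below 0 in heart.

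The response of lung exceeded that of heart for 7 members at 6 hr (7.08% of all genes), 5 at 48 hr (0.722%) and 4 at 72 hr (0.132%), with medians of 1.40, 2.28 and 2.47 beside -0.23, 0.00 and -0.18. Foxm1 was among them at 48 hr (3.19 ± 0.73, adjusted p = 0.0134) and 72 hr (3.13 ± 0.79, 0.0458), Ccne1 at 6 hr (3.12 ± 0.85, 0.00822) and 48 hr (2.89 ± 0.75, 0.0345), and Top2a at 48 hr (4.21 ± 1.02, 0.0206). The Ccne1 level of lung at 6 hr rests on 1 library, at 2.88 CPM in replicate 3 and 0 in the other 3. The calls of Foxm1 at 72 hr and Ccne1 at 6 hr were lost with a block for mouse and with a series effect common to the organs. With the lung libraries of at least 10% of reads on genes the counts were 2, 11 and 15. Against brain, lung was higher for 1 member, Bub1b, at 6 hr (6.17% of all genes) and lower for 1, Rrm1 (6.43%). Bub1b was not called with a block for mouse, with at least 10% of reads on genes or without the 6 hr mouse of series 1. Rrm1 was not called with at least 10%, with libraries under 3% included or with a common series effect. At 48 and 72 hr edgeR called 0 of 41 (1.39% and 0.414% of all genes in either direction), with 5 and 15 at an unadjusted p under 0.05 and 2 and 2 by DESeq2. With a block for mouse, since organs came from the same mice, 2 were called at 48 hr, Rrm1 lower and Kif20a higher. Without the block Kif20a had the other direction, at -0.71 ± 1.25 (adjusted p = 0.931). Mki67 without the block was -2.39 ± 0.95 at 48 hr (0.233) and -3.22 ± 1.08 at 72 hr (0.143). Without the 6 hr mouse of series 1 the counts were 2 for heart below brain at 6 hr, 1 for lung and brain at 6 hr and 2 at 72 hr.

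The 48 hr mice were not alike, and the plot of Mki67 against Cdkn1a shows it library by library. In brain, replicates 1 and 2 of series 2 held 21.9 and 18.1 CPM of Mki67 with 71.9 and 49.1 of Cdkn1a, and replicates 6 and 7 of series 4 held 0.534 and 0.543 of Mki67 with 1749 and 1611 of Cdkn1a. In series 1, replicate 3 held 0.964 and 2006 and replicate 4 13.5 and 208. In heart the Cdkn1a values of replicates 1, 2, 3, 4, 6 and 7 were 234.9, 297.5, 2141, 487, 3055 and 2892 CPM, and in lung 76.6, 42.0, 856.9, 635.1, 924 and 982, so that replicates 3, 6 and 7 were high in each organ. The same replicate number here is the same mouse by file name. The neutrophil markers summed to 23820, 21680 and 25590 CPM in brain replicates 3, 6 and 7 and to 1162, 450.6 and 7680 in replicates 1, 2 and 4. In heart Mki67 was at 48.71 CPM in replicate 2 and at 9.667 to 17.23 in all others. Replicates 1 and 4, with lower Cdkn1a, thus lay in the same Mki67 range as replicates 3, 6 and 7. No test was made across these 6 mice.

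**Figure D5:**
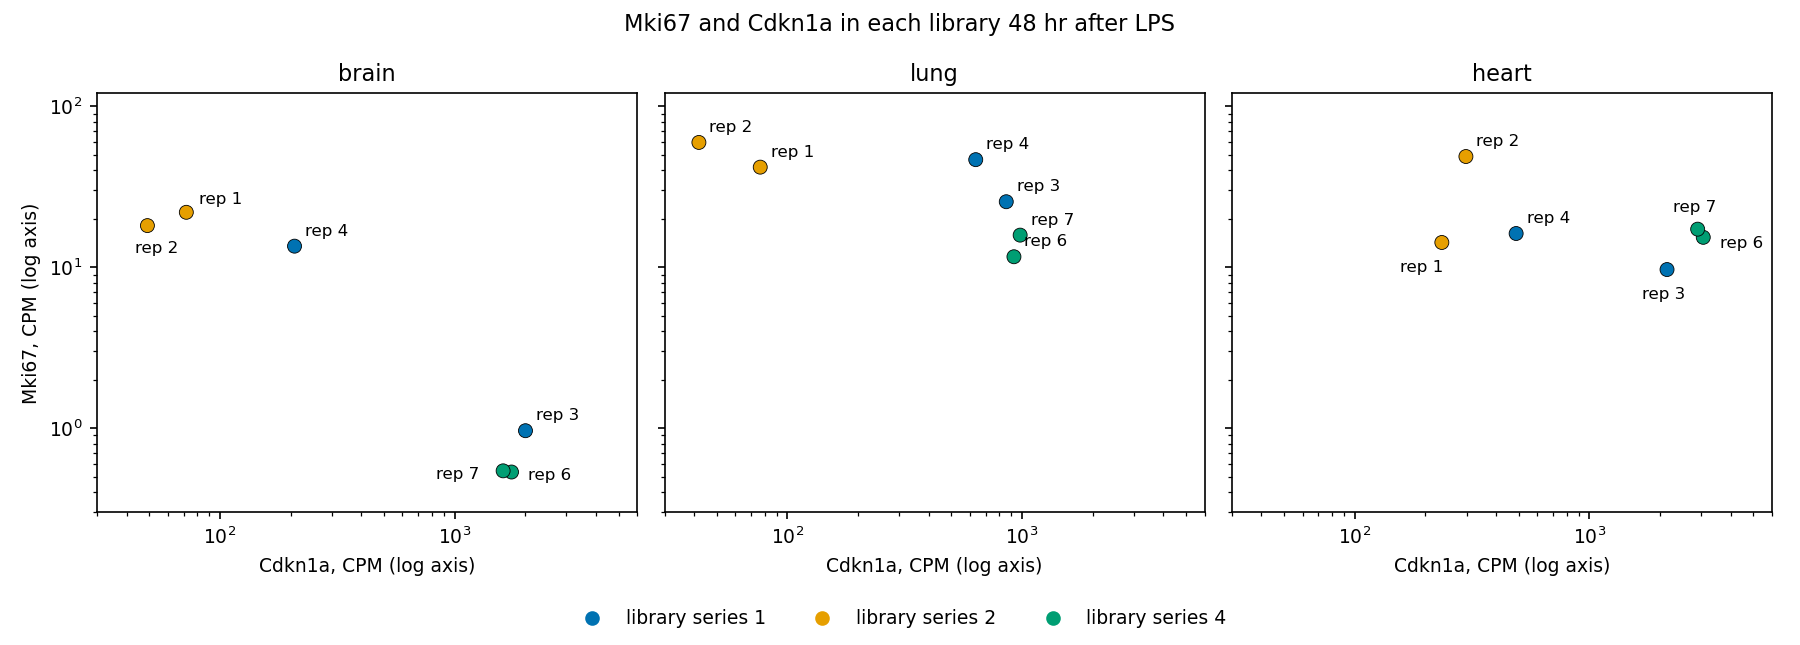
Mki67 (vertical) against Cdkn1a (horizontal) in CPM, both log axes, one point per 48 hr library of brain, lung and heart, coloured by library series. In brain the 3 libraries above 1600 CPM of Cdkn1a have the 3 lowest Mki67 values. In heart replicate 2 has 48.71 CPM of Mki67 and all others 9.667 to 17.23, with high or low Cdkn1a.

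Further genes of the same phases were counted in the same way. Of 49 other S phase genes, 22 rose in brain at 48 hr and 27 at 72 hr (median 0.94 and 1.30), beside 8.11% and 2.98% of all genes (median 0.02 and -0.04), and 25 were lower at 168 than at 48 hr, beside 15.3%. In heart 25 fell and 2 rose at 6 hr, beside 20.3% and 22.4% of all genes, with a median of -0.84 beside -0.05, and 27 rose from 48 to 168 hr, beside 8.92%. Asf1b, a histone chaperone, changed by 4.29 ± 0.53 (adjusted p = 5.15e-05) and Gins2, a helicase partner, by 2.48 ± 0.33 (8.22e-05) in brain at 72 hr. In heart at 6 hr the methyltransferase gene Dnmt1 fell by 1.23 (SE 0.18, 3.18e-05) and the primase gene Prim2 fell by 1.64 (SE 0.25, 4.79e-05), whereas Pola2 changed by 1.35 ± 0.27 (0.000601) and Msh6 by 0.64 ± 0.21 (0.0196). Of 67 other mitotic genes tested in brain, 38 rose and 1 fell at 48 hr and 46 rose at 72 hr (median 2.87), and in heart 22 of 68 fell at 6 hr and 62 rose from 48 to 168 hr (median 2.55 beside 0.00), against the same shares of all genes. Tacc3, a spindle gene, changed by 2.10 ± 0.28 (8.04e-05) and Ndc80 of the kinetochore by 3.23 ± 0.44 (0.000116) in brain at 72 hr. The fallen one in brain at 48 hr was Stmn1 (-1.02 ± 0.31, 0.028), Cdc25b fell at 6 hr (-1.03 ± 0.29, 0.0265), and in heart at 6 hr Hjurp and Ncaph fell (-0.89 ± 0.18, 0.000895, and -1.47 ± 0.36, 0.0028) while Pttg1 rose (1.75 ± 0.33, 0.000385). In lung 2 other S phase genes rose at 72 hr, beside 29 of 17058 genes, Uhrf1 among them (3.63 ± 0.81, 0.0493). At 6 hr in lung 1 other mitotic gene rose, Ncapg (4.88 ± 1.47, 0.0479), and 1 fell, Stmn1 (-6.49 ± 1.72, 0.0257), beside 436 and 388 of 17058 genes.

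Of 13 G1 cyclins and kinases, 1, 3, 2, 3 and 0 rose in brain over the 5 times beside 4.21%, 6.52%, 8.11%, 2.98% and 0% of all genes, and 1 fell at 48 hr. In heart 3 rose and 3 fell at 6 hr (median 0.20 beside -0.05), near the 22.4% and 20.3% of all genes that did. Myc, which drives cell growth, went in heart from 1.96 to 3.39 CPM at 0 hr to 143.8, 178.4, 54.6 and 96.0 in 6 hr replicates 1 to 4 and 1.97 in replicate 5, a change of 5.32 ± 0.80 (adjusted p = 4.13e-05). In brain Myc changed by 3.21 ± 0.73 at 24 hr (0.00654) and in lung by 4.49 ± 0.89 at 6 hr (0.00435). Cdk2, the partner of cyclin E, changed by 1.12 ± 0.20 in brain at 48 hr (0.00104) and by -0.87 ± 0.22 in heart at 6 hr (0.00365), and Ccnh by 0.63 ± 0.20 there (0.0148). Ccnd2 (cyclin D2) fell in brain at 48 hr (-1.14 ± 0.27, 0.00816) and in heart at 24 hr (-1.62 ± 0.46, 0.0238). Of 15 CDK inhibitors and pocket proteins, which hold cells in G1, 3, 4 and 3 fell in brain at 6, 24 and 48 hr, beside 428, 897 and 1178 of 19234 genes (median -0.26, -0.27 and -0.07 beside 0.00, -0.03 and 0.02), and none rose. Among them were Cdkn2b (-1.91 ± 0.44 at 24 hr, 0.00727) and Cdkn1c (-1.30 ± 0.36 at 48 hr, 0.0189). In heart at 6 hr 3 rose and 5 fell, beside 22.4% and 20.3% of all genes (median -0.03 beside -0.05), with Cdkn2b at 1.16 ± 0.39 (0.0218), E2f4 at 0.35 ± 0.13 (0.037), Rb1 at -0.86 ± 0.20 (0.00215) and Cdkn2c at -1.52 ± 0.40 (0.00522). In lung 1 fell at 6 hr, Cdkn2c (-3.21 ± 0.93, 0.039), beside 388 of 17058 genes.

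Of 24 p53 targets, 6, 7, 4 and 1 rose in brain at 6, 24, 48 and 72 hr (medians 0.32, 0.65, 0.43 and 0.01), beside 4.21%, 6.52%, 8.11% and 2.98% of all genes (medians 0.00, -0.03, 0.02 and -0.04). In heart 8 and 3 rose at 6 and 24 hr, beside 22.4% and 9.07% (medians 0.32 and 0.34 beside -0.05 and -0.04), while in lung none was called at any time. Ckap2, also a mitotic gene, changed by 4.14 ± 0.65 in brain at 72 hr (adjusted p = 0.000394), Polk fell there at 24 hr (-2.26 ± 0.51, 0.00588) and in heart at 6 hr (-0.85 ± 0.30, 0.0277), and Ccng1 fell in heart at 48 hr (-0.70 ± 0.15, 0.00818). Gadd45a, a damage response gene, and Fas changed in heart at 6 hr by 2.79 ± 0.45 (8.63e-05) and 1.61 ± 0.32 (0.000601). Of 14 antiproliferative and quiescence genes, 1 rose and 1 fell in brain at 6 hr (4.21% of all genes rose and 428 of 19234 fell, with medians of 0.00 for the list and for all), Btg2 (1.69 ± 0.34, 0.00254) and the flow-responsive Klf4 (-1.26 ± 0.33, 0.0198), and Txnip rose at 24 hr (1.72 ± 0.51, 0.0305). In heart 4 rose and 2 fell at 6 hr (median 0.11), near or under the 22.4% and 20.3% of all genes (median -0.05), with Btg1 at 1.41 ± 0.29 (0.000802), Btg2 at 0.88 ± 0.20 (0.00175) and Ccng2 at -0.80 ± 0.31 (0.0411), and at 24 hr Gas1 was at -2.32 ± 0.55 (0.00899). None of these 14 was called in lung.

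The endothelial repair regulators were 20 genes of growth, hypoxia and Tie2 signalling. In brain 4 rose and 4 fell at 6 hr, beside 810 and 428 of 19234 genes, and none was called by edgeR at 72 hr, when 573 genes rose and 105 fell, or at 168 hr, when 0 did. In heart 6 rose and 8 fell at 6 hr, beside 22.4% and 20.3% of all genes, and in lung 1 rose and 5 fell, beside 436 and 388 of 17058 genes, and none was called later. The medians at 6 hr were 0.11 in brain, -0.24 in heart and -1.08 in lung, beside 0.00, -0.05 and -0.42, and 6 hr was also when most genes of all kinds were called in heart and lung. The endothelial markers summed to a median of 3326 CPM at 0 hr and 2026 at 6 hr in brain, 14250 and 7659 in heart, and 17400 and 4170 in lung. The cardiomyocyte markers in lung summed to 80.1 to 154.3 CPM at 0 hr and 140.2 to 2376 at 6 hr. The part of these shifts in the changes of single repair genes was not tested. Angpt2, a Tie2 ligand released by activated endothelium, went in brain from 32.8, 29.2, 22.4, 34.7 and 23.1 CPM at 0 hr to 182.7, 436.8, 193.3 and 215.4 at 6 hr and 30.9 in replicate 6 (3.08 ± 0.49, adjusted p = 0.000345). Tek, which encodes the receptor Tie2, went from 201.5, 299.5, 133, 231.2 and 248.7 CPM to 20.4, 23.1, 18.3 and 28.9, and 191.6 in replicate 6 (-2.15 ± 0.44, 0.00282), and was back at 159.2, 225.7, 234.8 and 167.1 at 72 hr. Sox17, a factor of arterial and regenerating endothelium, fell at 6 hr (-1.70 ± 0.34, 0.00252), and the stress factor Atf3 rose (2.81 ± 0.47, 0.000478). In heart Atf3 and Hif1a rose at 6 hr (3.76 ± 0.45, 8.97e-06, and 3.15 ± 0.47, 3.94e-05) while Cxcr4 and Wwtr1 fell (-1.97 ± 0.42, 0.00108, and -1.36 ± 0.31, 0.00178). In lung Hif1a rose at 6 hr (2.37 ± 0.65, 0.0302) and Aplnr and Esm1 fell (-4.64 ± 0.96, 0.00552, and -3.86 ± 0.92, 0.014).

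The remaining counts are of marker lists, and some of their summed levels moved. The epithelial markers in heart summed to 32.71 to 108.4 CPM at 0 hr and 99.83 to 453.9 at 24 hr, the mural and fibroblast markers in heart to 376.9 to 729 at 0 hr and 868.9 to 1657 at 48 hr, and the erythroid markers in brain to 6.253 to 46.23 at 0 hr and 0.896 to 19.44 at 72 hr. Of 11 neutrophil markers tested in brain 2, 1, 6, 1 and 0 rose over the 5 times, beside 4.21%, 6.52%, 8.11%, 2.98% and 0% of all genes, with Lcn2 at 8.98 ± 1.06 at 24 hr (adjusted p = 3.18e-05) and Mmp8 at 4.06 ± 0.92 at 48 hr (0.00595). In lung Retnlg and Ngp led at 48 hr (4.60 ± 0.67, 0.00027, and 5.62 ± 0.86, 0.000522) and in heart Lcn2 and S100a9 at 6 hr (8.36 ± 1.18, 2.62e-05, and 5.75 ± 0.93, 8.9e-05). Cd14, of the monocyte and macrophage markers, changed at 6 hr by 6.39 ± 0.87 in brain (0.00012), 5.47 ± 0.90 in lung (0.00109) and 4.54 ± 0.61 in heart (1.85e-05), and Itgam at 48 hr by 3.88 ± 0.76 in lung (0.00911) and 4.48 ± 0.69 in heart (0.000598). Of 5 lymphocyte markers tested in brain 1, Cd79a, fell at 24, 48 and 72 hr (-2.79 ± 0.48 at 48 hr, 0.000783), and none was called in lung or heart. Beside this and the other falls of markers in brain, the numbers of all genes that fell stand above. They are given with the CDK inhibitors for 6, 24 and 48 hr and with the repair regulators for 72 hr. Of 5 erythroid markers in brain 1, Hbb-bt, fell at 48 and 72 hr (-2.45 ± 0.75 at 48 hr, 0.0305), with none in lung or heart. Of 12 mural and fibroblast markers 1, Dcn, rose in brain at 24 and 48 hr (1.85 ± 0.39 at 24 hr, 0.00389), beside 6.52% and 8.11% of all genes. In heart at 6 hr 3 fell, beside 20.3% of all genes, and in lung at 6 hr 1 fell, beside 4.83% called in either direction. Among epithelial markers 1 rose, beside 8.11% of all genes, and 1 fell in brain at 48 hr, Ager and Cdh1 (1.91 ± 0.60, 0.0343, and -1.20 ± 0.37, 0.0324). In heart at 24 hr 1 rose, Hopx (2.30 ± 0.65, 0.0231), beside 9.07% of all genes, and none was called in lung. Of the cardiomyocyte markers, Myh7 rose and Actc1 fell in heart at 48 hr (3.16 ± 0.63, 0.00454, and -1.80 ± 0.34, 0.0027), beside 3.08% and 1.11% of all genes. In lung at 6 hr 3 rose, beside 4.83% of all genes called in either direction. Of 17 neuron and glia markers in brain 1, 1, 1, 0 and 0 rose, beside 4.21%, 6.52%, 8.11%, 2.98% and 0% of all genes. In the same order 0, 2, 2, 0 and 0 fell, Olig1 and Olig2 at 48 hr among them (-0.96 ± 0.24, 0.0118, and -0.95 ± 0.25, 0.0143).

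The genes whose mean log2 level over the 18 groups of organ and time lay nearest to that of the mitosis list, among 14502 genes tested in all 3 organs, were Ckap2l (Pearson r 0.989), Pimreg (0.975), Kifc1 (0.974), Knl1 (0.967), Iqgap3 (0.967), Kif2c (0.9665), Melk (0.966), Cdca2 (0.966), Pclaf (0.963) and Kif18b (0.961). Of these 10, 9 are among the other mitotic genes, and Pclaf is not. The points share libraries and the differences between organs, so that r is a description.

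Because the strand setting of the counting was not given, reads of overlapping genes cannot be told apart. Kif20a, the member most exposed, shares 1271 exon bases with Cdc23 on the opposite strand, and overlaps of 53 to 1100 bases were found for Ccna2, Ccnd1, Ccne2, Cdc20, Cdc45, Cdkn1a, Mcm7, Nusap1, Plk1, Prc1 and Ube2c, so that their levels are uncertain to that extent. Replicates of one organ and time are separate mice by the file names, whereas libraries of different organs at one time can share a mouse.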

How the data were processed

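Ribosome-bound RNA of endothelium, pulled down through HA-tagged Rpl22, was measured in brain, lung and heart of mice at 0, 6, 24, 48, 72 and 168 hr after LPS. The files hold counts of reads per gene for each sequencing run, made by the authors with STAR 2.4.2 and HTSeq 0.6.1 on mm10, per the submitters' processing notes; the values are deposited counts, and the strand setting was not stated. Libraries were TruSeq mRNA libraries read on an Illumina HiSeq instrument. The 217 runs were summed into 98 libraries, and the 80 with at least 3% of reads on genes were kept. This is a rule on the share of reads and not on counts, so that a lung library of 284457 counts was kept.

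Groups were organ and time after LPS. Library series (4, by pattern of file name) and mouse were read from file names. Genes were filtered with filterByExpr and scaled by TMM, and were tested within each organ with edgeR 4.0.16 quasi-likelihood F tests (limma 3.58.1, R 4.3.3) with series as a covariate. Responses of 2 organs, and organs at 0 hr, were compared in joint fits without a term for mouse, which was tried as an alternative. P-values were adjusted by Benjamini-Hochberg over all genes tested in a comparison (19234 in brain, 17058 in lung, 16024 in heart, 22007 between responses, 17730 at 0 hr), and under 0.05 a gene was called. Standard errors are the absolute log2 change over the root of F, where log2 changes were estimated by the fit. CPM come from one TMM over the kept libraries, with a prior count of 2 for log2 CPM, and lengths are exon unions of GENCODE M21.

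Members were chosen by symbol. Members and lists were chosen with earlier results of these data known. Values by library or by range are given for 10 members fixed by role (Mki67, Top2a, Cdk1, Ccnb1, Foxm1, Ccnd1, Ccne1, Mcm5, Pcna, Cdkn1a), though not in every organ and at every time. Up to 3 more per organ, time and direction with the lowest adjusted p are named. From each further list, up to 2 genes per direction and organ with the lowest adjusted p are named. The further lists were other S phase genes, other mitotic genes, G1 cyclins and kinases, CDK inhibitors and pocket proteins, antiproliferative and quiescence genes, p53 targets, endothelial repair regulators, and markers of endothelial, neutrophil, monocyte and macrophage, lymphocyte, erythroid, mural and fibroblast, epithelial, cardiomyocyte, and neuron and glia cells. The share or number of all genes called, and the median over all genes, are given beside most counts of lists of cell cycle and repair genes, and a list was not tested as a set. Counts at an unadjusted p under 0.05, and counts under the alternatives, have no such share beside them.

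DESeq2 1.42.0, limma-voom, other filters, libraries and series terms were tried as alternatives. The code was tested on simulated data. Tables and plots used Python 3.11.15, pandas 2.3.3, numpy 2.4.6, SciPy 1.17.1, matplotlib 3.10.9 and the R package data.table (version 1.17.8). Kept lung libraries held as few as 284457 counts, where 3 counts are the least that set a level apart from 0.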

Additional observations from a re-analysis of the deposited data

Results flagged for a closer look

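Outlying libraries were sought for the 10 fixed members in each group, and 23 of 170 groups tested had one, where chance flags about 1 in 20. In brain these were Cdkn1a at 6 hr replicate 6 (96.33 CPM), Ccne1 at 24 hr replicate 2 (10.59), Ccnd1 and Mcm5 at 48 hr replicate 4 (621.6 and 64.22), and Top2a and Pcna at 168 hr replicate 1 (2.673 and 15.97). In heart they were Cdkn1a at 0 hr replicate 1 (382.8 CPM) and at 6 hr replicate 5 (227.6), Mki67 at 48 hr replicate 2 (48.71), and at 72 hr replicate 1 Ccnb1 (5.356), Foxm1 (10.65) and Ccnd1 (1291). At 168 hr, heart replicate 1 was low for Top2a (54.84 CPM), Cdk1 (54.28), Foxm1 (16.02) and Cdkn1a (46.74). In lung they were Ccnd1 at 0 hr replicate 4 (749.3 CPM), Pcna at 6 hr replicate 2 (0), Ccnb1, Foxm1 and Ccne1 at 6 hr replicate 3 (0.1634, 3.105 and 2.876), Pcna at 48 hr replicate 4 (71.61) and Cdkn1a at 72 hr replicate 5 (410). At lung 6 hr the libraries other than replicate 3 held 0 CPM of Ccnb1, Foxm1 and Ccne1, and 3 counts there are 1.12, 1.093 and 10.55 CPM. A level such as the 0.1634 of Ccnb1 could not have been set apart from 0 in them. None of the libraries named here was left out for being flagged.

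Responses differed between organs for 13 pairs of fixed member and time. Heart minus brain at 48 hr was -4.98 for Mki67, -4.90 for Cdk1 and -4.80 for Top2a on the log2 scale. At 72 hr it was -6.87 for Mki67, -6.83 for Cdk1, -6.59 for Top2a, -3.75 for Foxm1 and -2.59 for Mcm5. Lung minus heart was 3.12 for Ccne1 at 6 hr, 2.89 for Ccne1, 3.19 for Foxm1 and 4.21 for Top2a at 48 hr, and 3.13 for Foxm1 at 72 hr. The lung level of Ccne1 at 6 hr rests on replicate 3 alone, with 0 counts in the other 3 libraries.

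The 18 libraries left out had 1 replicate per group, and 16 values had a 95% interval wholly above that of the same organ's left-out 0 hr library. Each interval covers counting error in 1 library alone and not the spread between mice. The lung 0 hr library had 0 counts for each measure, with an upper limit of 4.87 CPM. Values below the 0 hr library were found as well, such as the mitosis list at 274.1 CPM at 6 hr against 719.8 at 0 hr in brain and 157.8 against 436.2 in heart. For the mitosis list the values above were lung 24 hr replicate 2 (319.5 CPM), 48 hr replicate 5 (426.2), 72 hr replicate 4 (736) and 168 hr replicate 3 (880.8), where Kif20a gave nearly all counts (521 of 544 at 168 hr). For the DNA replication list they were brain 48 hr replicate 5 (98.86 CPM), lung 48 hr replicate 5 (31.57), lung 72 hr replicate 4 (37.69) and lung 168 hr replicate 3 (71.24). Mcm7 gave 45 of 52, 17 of 42, 21 of 38 and 33 of 44 of these counts in turn. For Cdkn1a they were brain 6 hr replicate 5 (15.4 CPM), 24 hr replicate 3 (19.05) and 48 hr replicate 5 (22.81), lung 24 hr replicate 2 (15.82) and 48 hr replicate 5 (42.09), and heart 6 hr replicate 6 (44), 24 hr replicate 3 (73.86) and 48 hr replicate 5 (41.37). The Cdkn1a counts at 0 hr were 0 in brain, with an upper limit of 6.337 CPM, and 3 in heart, at 4.758 CPM with an upper limit of 13.91. Overlaps of Kif20a exons with the antisense gene Cdc23, and of Mcm7 with genes on the opposite strand, were not tested as sources of these counts.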

How the results depend on the processing

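The counts of members called are given as edgeR with library series as covariate and then as each alternative, where an alternative moved a count by over 1.5 times or to or from 0. The cause of each move was not tested. The shares of all genes called under the alternatives do not stand beside these counts, so a move is not a result about the members alone. DESeq2 changed heart at 24 hr from 8 to 14 and at 48 hr from 4 to 8, lung at 6, 48, 72 and 168 hr from 0 to 2, 2, 6 and 9, and lung 168 against 48 hr from 3 to 7. For responses it gave heart minus brain 2 at 6 hr (1) and 22 at 48 hr (11), lung minus brain 5, 2 and 2 at 6, 48 and 72 hr (2, 0 and 0), and lung minus heart 16 at 48 hr (5) and 16 at 72 hr (4). Limma-voom gave brain 1 at 24 hr (2) and 12 at 48 hr (28), heart 1 at 48 hr (4) and lung 1 at 72 hr (0). No filter on low counts gave heart 23, 23, 3 and 6 at 24, 48, 72 and 168 hr (8, 4, 0 and 0) and lung 1, 1 and 5 at 48, 72 and 168 hr (all 0).

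With libraries under 3% of reads on genes included, lung 168 against 48 hr had 1 (3), heart minus brain at 6 hr 0 (1), lung minus brain 1, 1 and 1 at 6, 48 and 72 hr (2, 0 and 0), and lung minus heart 11 and 12 at 48 and 72 hr (5 and 4). With at least 10% of reads on genes, lung at 72 hr had 4 (0), heart minus brain at 6 hr 2 (1), lung minus brain 1, 1 and 2 at 6, 48 and 72 hr, and lung minus heart 2, 11 and 15 (7, 5 and 4). Without the 6 hr mouse of series 1, brain at 6 hr had 2 (1), heart minus brain at 6 hr 2 (1), and lung minus brain 1 at 6 hr (2) and 2 at 72 hr (0). Against 0 hr, scaling by RLE gave 32 for brain at 48 hr (28) and the same counts elsewhere, and libraries of at least 1000000 counts alone gave the same counts in brain, lung and heart.

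Without the series covariate, brain 168 against 48 hr had 14 (26), brain at 6 hr 0 (1), heart at 24 hr 17 (8), lung 168 against 48 hr 1 (3) and lung at 6 hr 1 (0). A series effect common to the organs gave lung minus brain at 48 hr 1 (0) and lung minus heart at 72 hr 1 (4). Only series 1 gave 0 for brain at 6, 24, 48 and 72 hr and for heart at 6, 24 and 48 hr, with Cdkn1a at 6 hr reversed to -0.15 in brain and -0.18 in heart. Only series 2 gave brain 2, 18 and 18 at 6, 48 and 72 hr (1, 28 and 34) and heart 10, 2 and 0 at 6, 24 and 48 hr (20, 8 and 4). Only the 2 groups compared gave heart 12, 29 and 2 at 6, 24 and 48 hr.

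A block for replicate number gave brain 1 at 24 hr (2, losing Cdkn1a) and heart 0 at 48 hr (4). Replicate numbers did not pair libraries of one organ across times, where no mouse recurs (mean correlation -0.02 within and 0.00 between numbers). Between organs at one time, the mean correlation was 0.225 within a mouse by file name and -0.0544 between mice. A block for mouse gave heart minus brain 3 at 6 hr (1), lung minus brain 2 at 48 hr (0) and lung minus heart 8 at 48 hr (5).

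Leaving out 1 library at a time gave brain 1 to 2 at 6 hr, 0 to 3 at 24 hr, 19 to 31 at 48 hr, 24 to 35 at 72 hr, 0 at 168 hr, 11 to 28 for 48 against 6 hr and 19 to 27 for 168 against 48 hr. Heart ranged over 12 to 21, 1 to 13, 0 to 9, 0 to 5 and 0 at the same times, 5 to 11 and 30 to 37. Lung ranged over 0 to 7, 0, 0 to 1, 0 to 2 and 0 to 1, then 0 to 11 and 0 to 5. At 0 hr heart minus brain had 40 to 41, lung minus brain 24 to 29 and lung minus heart 31 to 35. The limits to at least 10% of reads on genes, to single series, to mice other than that of series 1 at 6 hr, and leaving out libraries between times were added after the data were seen. Of 1517 values of named members against 0 hr within an organ under the alternatives, 1342 were the same, 173 weaker and 2 reversed. Comparisons between later times, between organs at 0 hr and between responses are not in this tally.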
